A study of Mus musculus with 12 samples.

Results

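Neural precursors that carried PSA-NCAM on their surface and had been enriched with magnetic beads were set against unsorted precursors of the same differentiation step, step 4. The comparison uses 6 of the 12 arrays of the series, 3 of enriched and 3 of control cells, chosen by their labels alone. The fit behind its SE and p-values takes the spread from all 12. PSA-NCAM is the neural cell adhesion molecule with long chains of polysialic acid. Sialyltransferases add these bulky, charged chains in the Golgi, the chains keep neighbouring membranes apart, and in the developing and adult brain they mark migrating precursors and young neurons.

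Both groups descended from a line of mouse embryonic stem cells (mESC) of C57BL/6 background with an actin-eGFP transgene. The line had been kept on fibroblast feeders, was freed of them with beads, and formed embryoid bodies for 4 days. After 24 h on an adhesive surface, neural precursors were selected for 6 days in ITSFn medium and then expanded for 5 days on polyornithine and laminin with N2 supplement and bFGF at 10 ng/ml, which is step 4. The enriched cells were freed of dead cells, labelled with an APC-coupled antibody to PSA-NCAM and held on a magnetic column by beads against APC. The control cells carry the label that no enrichment was made, and the labels do not say whether dead cells were also removed from them. Each array carried the Cy5-labelled RNA of 1 sample beside a common Cy3-labelled mESC RNA, with 100 ng of RNA and 0 dye swaps. The series calls the 3 samples of a group biological replicates. No source used here says that they came from separate mESC clones.

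A level is given here as the log2 ratio of Cy5 to Cy3, so that 0 is the mESC level and 1 is 2-fold above it. With 0 dye swaps, any bias of a probe toward either dye stays in its level, while a bias shared by both groups cancels in their difference. Levels are written for replicates 1, 2 and 3 in that order, and each replicate number is also the number of the slide. A difference is the mean level of enriched cells minus that of control cells on the log2 scale, with the SE of limma's moderated fit (n = 3 per group) and a p adjusted by the Benjamini-Hochberg method over all genes tested. A gene is called higher or lower where this adjusted p is under 0.05. Where the Cy3 signal of a probe was not well above background, its ratio to mESC is only a bound, and the difference between the groups rests on Cy5. Of the genes with values below this holds on all 6 arrays for Afp, Cdh11, Dcx, Dkk2, Dlx1, Fgf9, Gria3, Il18, Lrrn3, Robo2 and Six6, and on 1 to 5 arrays for Actl6b, Cxcr4, Ephb1, Kcnc1, Nkx2-1, Pax6, Rorb, St8sia2, St8sia4, Syn2 and Syt1.

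Of 22325 genes tested, 6951 (31.1%) were called, 3341 (15%) higher and 3610 (16.2%) lower in enriched cells. The counts of every gene list below are to be read beside these shares, 15% higher and 16.2% lower. At least 2-fold differences were called for 1162 genes (5.20%) that were higher and 1378 (6.17%) that were lower. The samples were bulk RNA, so that fewer cells of a type and less RNA per cell cannot be told apart. With arrays centred on their medians in place of loess, the median difference of all genes was 0.13, against 0.01 with loess, and 65.0% of the calls were higher, against 48.1% with loess. The log2 ratios of enriched arrays were more widely spread than those of control arrays, and whether this reflects the cells or the arrays was not tested. The SD of the ratios over genes was 1.16, 1.20 and 1.28 in enriched cells, against 0.68, 0.73 and 0.77 in control cells. With the log ratios of every array scaled to the same spread, 2310 genes were called, 647 higher and 1663 lower (28.0% higher). Lower calls then remained for 20 of 27 naive pluripotency factors, 19 of 31 germline and meiosis genes and 20 of 46 DNA replication and repair genes. Higher calls then numbered 9 of 31 fatty acid synthesis and LXR genes and 8 of 25 cholesterol synthesis genes, but 1 of 52 axon guidance ligands and receptors, 1 of 35 young neuron cytoskeleton genes, 1 of 31 neural stem cell and radial glia genes and 0 of 37 cadherins and protocadherins. The higher calls of the neural lists below thus depended on leaving the spread of the arrays as measured.

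Arrays of a group correlated over genes, which are not independent replicates, at 0.897 to 0.963 for enriched cells and at 0.736 to 0.85 for control cells. The differences on slides 1 and 2, 1 and 3, and 2 and 3 correlated at 0.668, 0.761 and 0.878. Leaving out 1 of the 6 arrays left between 4343 calls (without control replicate 2) and 6871 (without enriched replicate 1). Without enriched replicate 3 there were 4430 calls and without enriched replicate 2 there were 4578. Under all 6 omissions 3688 genes were called in the same direction, 1473 higher and 2215 lower, and a call that held under all 6 is said here to have held under every omission. Small counts were the least stable: of 57 counts of 1 to 4 calls of a gene list in 1 direction, 38 moved by over 1.5 times with 1 array left out, and their ranges are mostly not given.

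The labels were checked against markers. The 8 neural precursor markers averaged 3.04 to 3.1 over enriched arrays, against 1.53 to 2.34 over control arrays, and 5 of them were called higher. The 6 mESC markers averaged -4.59 to -3.50 in enriched cells, against -0.97 to -0.70 in control cells, and all 6 were called lower. The groups did not overlap in either average. The 5 neuron markers averaged 1.65 to 3.86 over enriched arrays, against -0.17 to 2.36 over control arrays. There the groups overlapped, and 1 of the 5 was called higher. The 6 endoderm markers averaged 0.08 to 1.91 over enriched arrays, against 0.57 to 3.24 over control arrays, and 0 of them were called. Those of fibroblasts and feeders averaged 4.45 to 4.72 in enriched cells, against 2.99 to 3.91 in control cells, also without overlap. Of these 6 markers 1 was called higher. Endothelium markers averaged -0.20 to 0.21 in enriched cells, against 0.27 to 0.78 in control cells, and 1 of 4, Pecam1, was called lower. Pecam1 lay below the mESC level in both groups, so that its fall need not concern endothelium. Astrocyte markers averaged 0.47 to 1.25 in enriched cells, against 0.0 to 0.33 in control cells, and 0 of 3 were called. Neither of these averages overlapped. Markers of blood, muscle, oligodendrocytes and neural crest averaged -0.52 to 0.93 in enriched cells, against -0.53 to 1.0 in control cells. In blood, muscle and neural crest 1 marker each was called lower, and in oligodendrocytes 0. The level of mESC markers thus differed between the groups beside every comparison that follows, and its part in them was not tested.

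**Figure D1:**
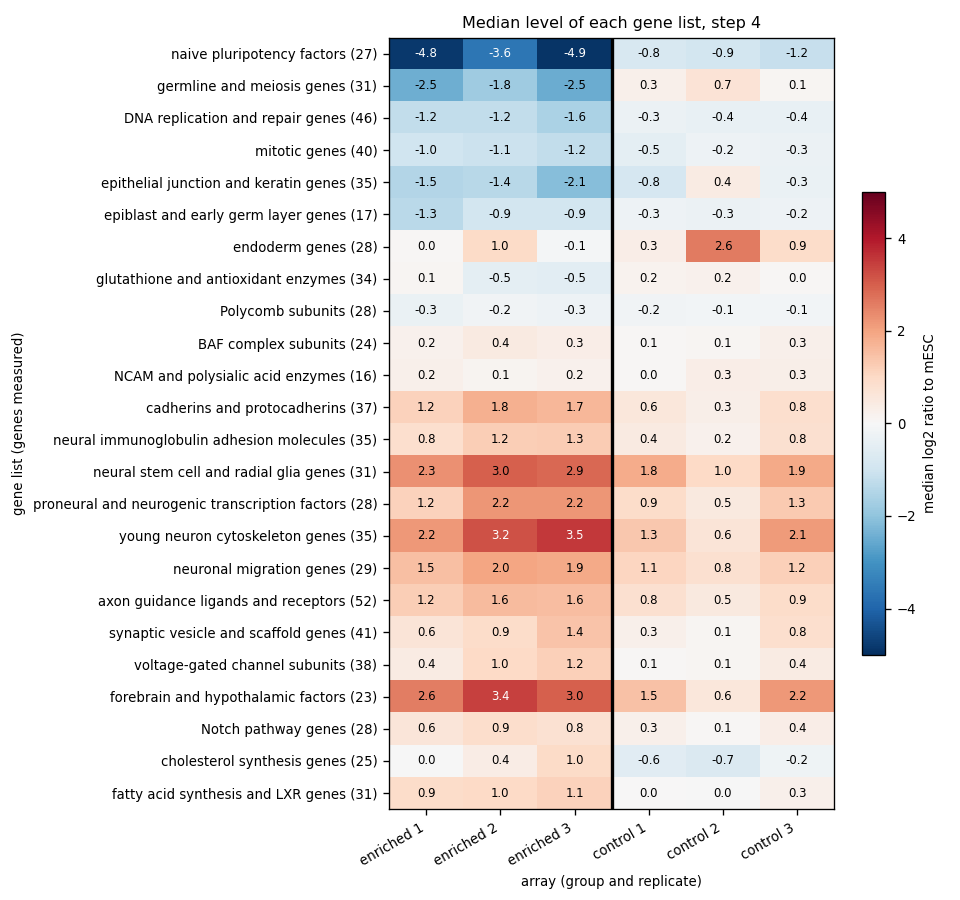
Median level of 24 gene lists on each of the 6 arrays, as log2 ratios to mESC (colour, blue below and red above the mESC level), with enriched replicates 1 to 3 on the left and control replicates 1 to 3 on the right. Naive pluripotency factors sit at -4.82, -3.62 and -4.90 in enriched cells, against -0.79, -0.93 and -1.16 in control cells, and young neuron cytoskeleton genes at 2.16, 3.20 and 3.52 in enriched cells, against 1.34, 0.64 and 2.14 in control cells.

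Promoter stretches of genes from 3 groups whose members moved together are shown here, each with a motif chosen for its group in capitals. Only that motif is marked, and CCAAT, marked in the sterol group, also occurs unmarked in stretches of the other groups. The windows are those of RefSeq on GRCm38.p6, from 250 bases before to 50 after the start of a gene, and each stretch is 100 bases of such a window on the strand of the gene. Germline genes that were lower in enriched cells are shown with the E-box CACGTG in capitals, a motif found in the promoters of many germline genes:
Ddx4 (chr13:112652311-112652410, minus strand): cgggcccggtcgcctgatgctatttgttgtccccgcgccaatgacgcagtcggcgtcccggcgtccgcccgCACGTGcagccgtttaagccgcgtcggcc
Sycp3 (chr10:88459487-88459586, plus strand): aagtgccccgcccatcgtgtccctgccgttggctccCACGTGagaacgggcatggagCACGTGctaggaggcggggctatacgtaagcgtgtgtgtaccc
Sycp1 (chr3:102936142-102936241, minus strand): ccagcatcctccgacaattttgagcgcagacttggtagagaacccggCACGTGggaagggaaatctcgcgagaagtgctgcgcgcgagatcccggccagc
Slc25a31 (chr3:40708731-40708830, plus strand): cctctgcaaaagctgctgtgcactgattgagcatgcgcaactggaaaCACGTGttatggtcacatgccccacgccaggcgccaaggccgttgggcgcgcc
Mitotic genes that were lower are shown with TTTGAA in capitals, or with TTCAAA where it lies on the other strand. TTTGAA is the core of the cell cycle homology region, and whether these copies belong to such a region was not tested. The copy nearest the start begins 15 bases before it in Cdk1, 19 in Kif11 and 167 in Ccnb2:
Cdk1 (chr10:69352913-69353012, minus strand): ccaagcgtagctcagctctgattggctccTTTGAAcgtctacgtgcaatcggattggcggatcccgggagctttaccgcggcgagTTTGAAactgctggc
Kif11 (chr19:37376282-37376381, plus strand): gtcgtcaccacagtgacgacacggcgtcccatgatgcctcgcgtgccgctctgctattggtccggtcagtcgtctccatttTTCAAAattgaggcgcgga
Ccnb2 (chr9:70421669-70421768, minus strand): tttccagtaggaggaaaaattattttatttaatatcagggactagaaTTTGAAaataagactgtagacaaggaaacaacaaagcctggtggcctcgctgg
Sterol genes that were higher are shown with CCAAT, the motif of the factor NF-Y, in capitals, or with ATTGG where it lies on the other strand:
Hmgcs1 (chr13:119690251-119690350, plus strand): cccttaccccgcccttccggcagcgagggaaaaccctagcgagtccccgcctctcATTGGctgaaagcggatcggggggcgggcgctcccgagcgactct
Mvk (chr5:114444169-114444268, plus strand): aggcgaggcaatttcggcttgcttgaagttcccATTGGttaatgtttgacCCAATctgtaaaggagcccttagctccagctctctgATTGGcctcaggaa

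In all, 10 motifs were searched on both strands of the windows. They were the E-box CACGTG and its longer form TCACGTGA, the sterol element TCACNCCAC, the cell cycle core TTTGAA, the NF-Y motif CCAAT, the nuclear receptor motif TCAAGGTCA, the octamer ATGCAAAT, the E2F core TTTCCCGC, the proneural E-box CAGCTG and the Rest core TTCAGCACC. The longer E-box contains the shorter one, and no other motif contains another. Among 32851 windows CACGTG was in 7.15%, TTTGAA in 17.9%, CCAAT in 37.4% and TTTCCCGC in 1.07%. Of the tested genes with a window, 10.9% held CACGTG, 14.7% TTTGAA, 42.6% CCAAT and 2.01% TTTCCCGC.

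CACGTG was in the windows of 8 of 21 lower germline genes (38.1%), against 12.5% of all lower genes. TTTGAA was in those of 20 of 24 lower mitotic genes (83.3%), against 17.7% of all lower and 11.3% of all higher genes. CCAAT was in 16 of the same 24 windows. It was in 9 of 9 windows of higher cholesterol synthesis genes (100%) and in 9 of 12 of higher fatty acid genes. It was also in 17 of 26 windows of lower replication and repair genes (65.4%) and in 11 of 21 of lower germline genes (52.4%). Of all higher genes 43.1% held it. The sterol element TCACNCCAC was in 1 of 9 windows of the higher cholesterol synthesis genes and 0 of 12 of the higher fatty acid genes. TTTCCCGC was in 6 of 26 windows of lower replication and repair genes (23.1%), against 3.4% of all lower genes. These are descriptions of letters in fixed windows and not of binding, and no test was made on them.

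Of the genes behind the sort antigen, those of the protein and of the enzymes that add polysialic acid were higher. Ncam1, which encodes the protein that carries polysialic acid, was at 3.69, 3.98 and 4.02 in enriched cells, against 2.66, 1.59 and 3.41 in control cells (log2 difference 1.34, SE 0.43, adjusted p = 0.0373). It was high on every array, and the lowest enriched value lay just above the highest control value. Ncam1 lost its call without any 1 of enriched replicates 1, 2 and 3 and control replicates 1 and 2 (0.86 to 1.45, adjusted p of 0.0524 to 0.125), with the smallest difference (0.86) without control replicate 2. St8sia2, the polysialyltransferase gene that dominates in the embryonic brain, was at 1.98, 2.45 and 2.33 in enriched cells, against 0.96, 0.51 and 1.16 in control cells (log2 difference 1.37, SE 0.27, adjusted p = 0.00474). Its groups did not overlap, and its call held under every omission. St8sia4, its partner in the postnatal brain, was at 3.02, 4.47 and 4.97 in enriched cells, against 2.05, 1.35 and 3.49 in control cells, where the groups overlapped (log2 difference 1.85, SE 0.63, adjusted p = 0.0467). It lost its call without any 1 of enriched replicates 2 and 3 and control replicates 1 and 2 (1.38 to 1.73, adjusted p of 0.117 to 0.167). With the scanner software's own processed ratios, which the authors' deposited table of values also holds, none of the 3 passed (Ncam1 1.24, adjusted p = 0.055, St8sia2 0.90, adjusted p = 0.283 and St8sia4 1.46, adjusted p = 0.291).

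Genes that supply the sialic acid had other directions. Nans, which makes sialic acid phosphate, was at -0.76, -0.86 and -0.98 in enriched cells, against -0.26, 0.01 and -0.28 in control cells (log2 difference -0.69, SE 0.12, adjusted p = 0.0027), lower on every slide. Gne, which acts before Nans, had a difference of 0.09 (SE 0.20, adjusted p = 0.768). Cmas, which activates the product to CMP-sialic acid, had one of 0.06 (SE 0.18, adjusted p = 0.846). Neither was called, and neither were the sialidase genes Neu1, Neu2, Neu3 and Neu4. The signal of Neu4 was not well above background in either group. In all, 4 of the 16 measured genes of the list were higher and 1 was lower. The number higher was between 1 (without enriched replicates 2 or 3 or control replicate 2) and 4 with 1 array left out.

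Naive pluripotency factors hold stem cells in the undifferentiated state. All 27 measured genes of the list were called lower, with a median difference of -3.29, and leaving out 1 array left 26 to 27 of the calls. The list's median level was 3.54, 8.13 and 3.35% of the mESC level in enriched replicates 1, 2 and 3, against 57.8, 52.5 and 44.8% in control replicates 1, 2 and 3. RNA of these genes was thus still present in unsorted cells, and its measured level was higher in enriched replicate 2 than in the other enriched replicates. Slide 2 was also extracted with another software version and scanned on another day, and the part of this in the level was not tested.

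Fgf4, the growth factor that mESC secrete, was at -6.81, -4.22 and -7.33 in enriched cells, against -0.58, -0.86 and -0.90 in control cells (log2 difference -5.33, SE 0.85, adjusted p = 0.00163), the largest fall of the ranked genes. Ranked genes were called, had a symbol and the same direction on every slide, and had Cy5 well above background throughout the higher group. Dppa3, a maternal factor of the early embryo and of germ cells, was at -5.85, -3.51 and -6.08 in enriched cells, against -0.57, -0.40 and -0.55 in control cells (log2 difference -4.64, SE 0.83, adjusted p = 0.00292). Nanog, a homeodomain factor, was at -6.26, -4.01 and -6.42 in enriched cells, against -0.73, -1.19 and -1.16 in control cells (log2 difference -4.54, SE 0.76, adjusted p = 0.00212). In all 3 genes enriched replicates 1 and 3 lay far below replicate 2, and every enriched value lay far below every control value. Esrrb, an orphan nuclear receptor, was at -3.07, -2.70 and -2.87 in enriched cells, against -1.11, -0.69 and -0.86 in control cells (log2 difference -2.0, SE 0.15, adjusted p = 5.75e-05). Dppa4, a chromatin-bound factor of stem cells, was at -4.32, -3.62 and -4.09 in enriched cells, against -0.36, -0.54 and -0.85 in control cells (log2 difference -3.42, SE 0.26, adjusted p = 5.75e-05). These 2 had the smallest adjusted p of the list, with little spread within either group. Tdh, threonine dehydrogenase, on which mouse stem cells depend for one-carbon units, was at -5.64, -3.80 and -5.85 in enriched cells, against -0.81, -0.83 and -0.85 in control cells (log2 difference -4.26, SE 0.57, adjusted p = 0.000736).

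Genes of the primed epiblast and early germ layers were lower in 5 of 17 cases and higher in 2. Nodal, the ligand that keeps the epiblast in its state, was at -3.66, -2.92 and -3.54 in enriched cells, against -0.26, -0.26 and -0.52 in control cells (log2 difference -3.03, SE 0.31, adjusted p = 0.000208). Foxh1, the DNA-binding partner of the Smads that Nodal activates, was at -2.95, -2.44 and -2.98 in enriched cells, against -0.32, 0.34 and -0.19 in control cells (log2 difference -2.73, SE 0.35, adjusted p = 0.000579). Both lay near the mESC level in control cells and far below it in all 3 enriched samples. Lefty2, an inhibitor and target of Nodal, was instead far below mESC in both groups, at -5.16, -5.09 and -4.82 in enriched cells, against -4.20, -4.80 and -4.27 in control cells, and was not called (log2 difference -0.60, SE 0.42, adjusted p = 0.315).

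By the list's median, germline and meiosis genes stood below the mESC level in enriched cells and above it in control cells. In germ cells they pair chromosomes, guard against transposons and regulate RNA, and in most somatic cells they are silent. Of 31 measured genes 23 were lower and 2 higher, with a median difference of -2.58, and leaving out 1 array left 21 to 23 lower. The list's median level was 18.2, 29.1 and 17.9% of the mESC level in enriched replicates 1, 2 and 3, against 121, 159 and 107% in control replicates 1, 2 and 3.

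Mael, a factor of transposon silencing by piRNA, was at -2.93, -1.95 and -3.11 in enriched cells, against 2.42, 2.61 and 1.63 in control cells (log2 difference -4.88, SE 0.48, adjusted p = 0.000178). Ddx4, the RNA helicase Vasa, was at -2.98, -1.30 and -3.03 in enriched cells, against 2.31, 2.58 and 1.87 in control cells (log2 difference -4.70, SE 0.59, adjusted p = 0.000533). Smc1b, the meiotic cohesin subunit, was at -4.30, -3.27 and -4.56 in enriched cells, against 0.94, 1.36 and 1.10 in control cells (log2 difference -5.18, SE 0.63, adjusted p = 0.000457). In each of these genes all control samples lay above mESC and all enriched samples below it, with enriched replicate 2 the least low. Hormad1, a checkpoint protein of the meiotic axis, was at -3.09, -2.01 and -3.12 in enriched cells, against 1.63, 1.71 and 1.54 in control cells (log2 difference -4.37, SE 0.45, adjusted p = 0.000208). Nlrp4f, a gene of the oocyte, was at -5.02, -3.68 and -5.15 in enriched cells, against 0.78, 0.37 and 0.03 in control cells (log2 difference -5.01, SE 0.55, adjusted p = 0.000278). Both crossed the mESC level in the same way.

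Sycp1, Sycp3 and Slc25a31 are named here because their promoters are printed above, after their values were seen. Sycp1, the transverse filament of the synaptonemal complex, was at -1.28, -0.77 and -1.32 in enriched cells, against 2.98, 3.54 and 2.29 in control cells (log2 difference -4.06, SE 0.34, adjusted p = 8.17e-05). Sycp3, of its lateral axis, fell by 4.10 (SE 0.52, adjusted p = 0.000559). Slc25a31, the ADP/ATP carrier of the testis, was at -0.40, -0.35 and -0.34 in enriched cells, against 1.80, 2.37 and 1.36 in control cells (log2 difference -2.21, SE 0.23, adjusted p = 0.000217). For Sycp1, Hormad1 and Slc25a31 Cy5 was well above background on 1 of 3 enriched arrays, so that their low levels are near the limit of the arrays. The 2 exceptions of the list were Tdrkh, a tudor protein of piRNA trimming, at 2.16, 2.30 and 2.52 in enriched cells, against 1.45, 0.96 and 1.56 in control cells (log2 difference 1.00, SE 0.24, adjusted p = 0.0105), and Nanos3, a translational repressor of early germ cells, with a difference of 0.79 (SE 0.17, adjusted p = 0.00794).

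**Figure D2:**
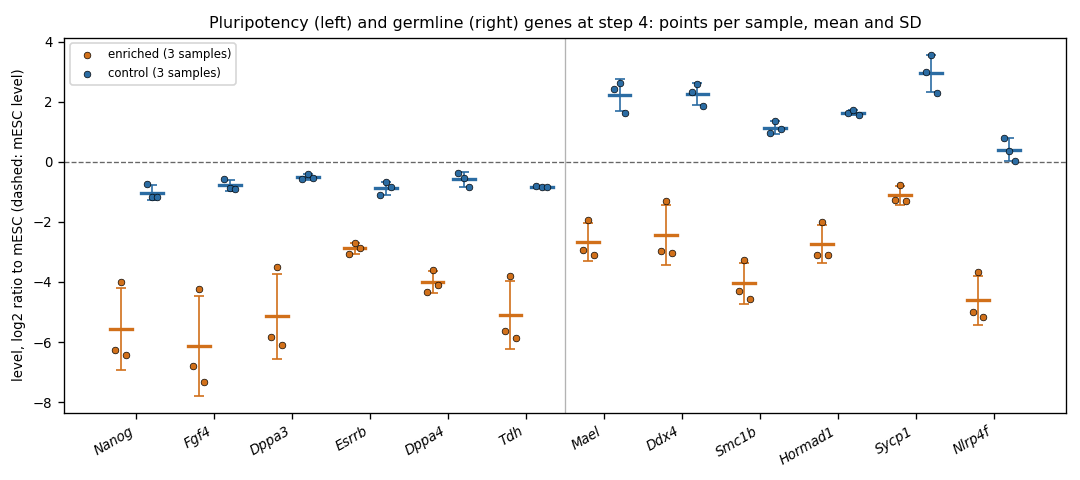
Levels of 12 pluripotency and germline genes as log2 ratios to mESC, with a point for each of the 3 enriched (left, orange) and 3 control (right, blue) samples of a gene, bars at the group means and error bars of 1 SD. The 6 germline genes on the right, such as Mael and Ddx4, lie below 0 in enriched cells and above 0 in control cells, while the 6 pluripotency genes lie below 0 in both groups.

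Enzymes that write DNA methylation differed in direction within 1 family. Dnmt3l, the inactive cofactor of new methylation in germ cells and stem cells, was at -5.16, -3.56 and -5.43 in enriched cells, against 0.02, -0.04 and -0.09 in control cells (log2 difference -4.68, SE 0.48, adjusted p = 0.000212). Dnmt3b, the enzyme of the early embryo, was at -3.69, -1.88 and -4.05 in enriched cells, against -0.89, -0.31 and -0.37 in control cells (log2 difference -2.69, SE 0.58, adjusted p = 0.00751). Dnmt3a, the enzyme of later development and of neurons, was at 3.27, 3.34 and 3.55 in enriched cells, against 1.63, 1.91 and 2.75 in control cells (log2 difference 1.29, SE 0.29, adjusted p = 0.00913). The first 2 were thus far lower in every enriched sample, and Dnmt3a was higher in every enriched sample. Tet1, a 5-methylcytosine dioxygenase of stem cells, fell by 1.68 (SE 0.22, adjusted p = 0.000619). Of the 18 measured genes of the list 7 were lower and 2 higher.

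Polycomb subunits, which keep genes silent through marks on histones H2A and H3, were higher in 8 and lower in 9 of 28 cases. Suz12, a core subunit of PRC2, was at -2.25, -1.88 and -2.16 in enriched cells, against -0.59, -0.60 and -0.83 in control cells (log2 difference -1.42, SE 0.17, adjusted p = 0.000369). Eed, its partner that binds the mark, fell by 1.16 (SE 0.19, adjusted p = 0.00211). In PRC1, paralogs of 1 subunit moved apart. Phc1 was at -2.33, -1.98 and -2.19 in enriched cells, against -0.69, -0.35 and -0.64 in control cells (log2 difference -1.61, SE 0.21, adjusted p = 0.000579). Phc2 was at 2.07, 2.03 and 1.85 in enriched cells, against 0.91, 0.50 and 0.90 in control cells (log2 difference 1.21, SE 0.15, adjusted p = 0.000463). Neither gene's groups overlapped, and both calls held under every omission. Bmi1, which neural stem cells need for self-renewal, rose by 1.00 (SE 0.14, adjusted p = 0.00078). Pcgf6, the subunit of a variant PRC1 that is known to silence germline genes in mESC, was at -1.55, -1.29 and -1.41 in enriched cells, against -0.19, -0.18 and -0.41 in control cells (log2 difference -1.15, SE 0.12, adjusted p = 0.000225). It was lower in the same samples as the germline genes, and no relation between them was tested.

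The BAF remodelling complex changes subunits on the way to neurons, and 8 of its 24 measured genes were higher and 4 lower, with the number higher between 4 (without enriched replicates 2 or 3 or control replicate 1) and 9 (without enriched replicate 1) with 1 array left out. Smarcd3, a subunit of differentiated cells, was at 2.18, 2.87 and 3.10 in enriched cells, against 1.02, 0.44 and 1.84 in control cells (log2 difference 1.61, SE 0.34, adjusted p = 0.00678). Its paralog Smarcd2 was at -1.46, -1.73 and -2.01 in enriched cells, against -0.74, -0.59 and -0.84 in control cells (log2 difference -1.01, SE 0.17, adjusted p = 0.00241). The groups of neither overlapped. The subunits that neurons exchange had small differences: Actl6b, the neuronal one, had a difference of 0.93 (adjusted p = 0.0308) and Actl6a, the progenitor one, of -0.56 (adjusted p = 0.0482). Actl6b, whose Cy5 was well above background on 1 of 3 control arrays, lost its call without any 1 of enriched replicates 2 and 3 and control replicates 1 and 2 (0.75 to 0.88, adjusted p of 0.0811 to 0.114). Actl6a lost its call without any 1 of enriched replicates 1, 2 and 3 and control replicates 1 and 3 (-0.61 to -0.45, adjusted p of 0.0827 to 0.151).

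Regulators of RNA and of neuronal genes were among the lower ones. Rest, the repressor that keeps neuronal genes off outside neurons, was at -1.92, -2.27 and -3.00 in enriched cells, against -1.16, -1.15 and -1.33 in control cells (log2 difference -1.19, SE 0.26, adjusted p = 0.00767), below mESC in both groups. Esrp1, the splicing factor of epithelial cells, was at -2.92, -2.18 and -2.83 in enriched cells, against -0.48, 0.69 and 0.15 in control cells (log2 difference -2.77, SE 0.42, adjusted p = 0.00129). Lin28a, which blocks the maturation of let-7, was at -3.06, -1.78 and -3.11 in enriched cells, against -0.51, 0.15 and -0.27 in control cells (log2 difference -2.44, SE 0.47, adjusted p = 0.00406). Its paralog Lin28b was not called at -0.33 (SE 0.32, adjusted p = 0.462).

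Genes of DNA replication and repair were lower in 36 of 46 cases and higher in 0, with a median difference of -0.90, and leaving out 1 array left 30 to 35 lower. Of 40 mitotic genes 29 were lower and 1, Cdc25b, was higher, with a median difference of -0.78 and 22 to 28 lower with 1 array left out. The list medians of replication genes were -1.22, -1.23 and -1.58 in enriched cells, against -0.29, -0.39 and -0.37 in control cells. The shift was small beside that of pluripotency factors, but it was shared by most members. Cells that leave the cell cycle are known to shut these genes down together, and whether the enriched cells had done so was not tested.

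Orc1, the large subunit of the origin recognition complex, was at -2.50, -2.33 and -2.73 in enriched cells, against -0.41, -0.37 and -0.67 in control cells (log2 difference -2.04, SE 0.16, adjusted p = 5.75e-05), the smallest adjusted p of its list. Mcm10, which helps to start the replicative helicase, was at -2.02, -1.68 and -2.42 in enriched cells, against -0.42, -0.32 and -0.50 in control cells (log2 difference -1.62, SE 0.24, adjusted p = 0.00128). Bub1, a kinase of the spindle checkpoint, was at -1.80, -1.81 and -2.15 in enriched cells, against -0.53, -0.33 and -0.46 in control cells (log2 difference -1.49, SE 0.25, adjusted p = 0.00205). In these genes every enriched value lay below every control value, and both groups lay below mESC. Genes whose TTTGAA stretches are printed above, and which were chosen for that reason, moved less. Cdk1, the kinase of mitotic entry, was at -0.61, -0.85 and -0.89 in enriched cells, against -0.04, 0.01 and 0.06 in control cells (log2 difference -0.79, SE 0.18, adjusted p = 0.0102). Kif11, the motor that parts the spindle poles, fell by 0.70 (SE 0.12, adjusted p = 0.00275), and Ccnb2, a mitotic cyclin, by 1.06 (SE 0.19, adjusted p = 0.00318).

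Mki67, the common marker of cycling cells, was at -0.36, -0.18 and -0.36 in enriched cells, against -0.61, -0.42 and -0.06 in control cells, where the groups overlapped, and was not called (log2 difference 0.06, SE 0.23, adjusted p = 0.868). Cdc25b, a phosphatase that acts in neural progenitors, was at 0.41, 0.54 and 0.57 in enriched cells, against -0.41, -0.12 and 0.21 in control cells (log2 difference 0.61, SE 0.20, adjusted p = 0.0378) and lost its call without any 1 of enriched replicates 1, 2 and 3 and control replicates 1 and 2 (0.46 to 0.66, adjusted p of 0.0523 to 0.129). Regulators of G1 were mixed, with 6 of 30 higher and 4 lower, or 12 and 4 with the slide as a block, and with the number higher between 2 (without enriched replicate 2) and 8 (without control replicate 3) with 1 array left out. Cdk4, the partner of D cyclins, was at 1.02, 1.16 and 0.98 in enriched cells, against 0.41, -0.15 and 0.34 in control cells (log2 difference 0.85, SE 0.20, adjusted p = 0.0106). Mycn, a driver of progenitor growth, was at -2.24, -1.62 and -2.33 in enriched cells, against 0.01, -0.79 and -0.57 in control cells (log2 difference -1.61, SE 0.38, adjusted p = 0.0109). Cdkn1a, the inhibitor p21, was at 3.12, 1.43 and 0.93 in enriched cells, against 0.48, 1.28 and 1.01 in control cells and was not called (log2 difference 0.90, SE 0.66, adjusted p = 0.334). Its enriched value on slide 1 lay far above the 5 others.

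Epithelial junction and keratin genes were lower in 17 of 35 cases and higher in 0, with a median difference of -1.11. The number lower was between 8 (without control replicate 2) and 17 with 1 array left out. Cdh1, E-cadherin, was at -4.13, -2.44 and -4.42 in enriched cells, against -0.72, 0.58 and -0.43 in control cells (log2 difference -3.48, SE 0.67, adjusted p = 0.0042). Cdh2, N-cadherin, was at 6.02, 5.96 and 5.92 in enriched cells, against 4.21, 3.09 and 4.43 in control cells (log2 difference 2.06, SE 0.46, adjusted p = 0.0084). Neither gene's groups overlapped, and both calls held under every omission. Neural tissue is known to exchange the first cadherin for the second when the neural plate forms. Epcam, a surface protein of epithelia and stem cells, was at -4.18, -3.02 and -4.27 in enriched cells, against -1.37, -0.23 and -0.97 in control cells (log2 difference -2.97, SE 0.48, adjusted p = 0.00181). Spint1, a protease inhibitor of epithelia, was at -2.71, -1.40 and -2.73 in enriched cells, against 0.03, 1.04 and -0.01 in control cells (log2 difference -2.63, SE 0.53, adjusted p = 0.00488). In Cdh1, Epcam and Spint1 replicate 2 was the highest sample of each group.

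Control replicate 2 also stood highest for genes of endoderm. Sox17, an endoderm factor, was at -0.09, 2.28 and -0.17 in enriched cells, against 0.66, 3.08 and 0.95 in control cells. Afp, alpha-fetoprotein, was at 0.03, 0.92 and 0.22 in enriched cells, against 0.57, 3.84 and 1.52 in control cells. Rbp4, the plasma carrier of retinol, was at -2.46, 0.90 and -1.70 in enriched cells, against -0.14, 3.93 and 1.84 in control cells. On slide 2 the value was the highest of the 3 slides in both groups for all of these, and none of them was called (adjusted p = 0.528 for Sox17, 0.35 for Afp and 0.177 for Rbp4). With the slide as a block Sox17 and Rbp4 were called lower (adjusted p = 0.00299 for Sox17 and 0.000739 for Rbp4). Of 28 endoderm genes 3 were lower, or 10 with the slide as a block.

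Of 37 cadherins and protocadherins 21 were higher, and Cdh1 was the 1 lower gene. The number higher was between 8 (without control replicate 2) and 21 with 1 array left out. Cdh11, a cadherin of mesenchyme and brain, was at 4.97, 5.02 and 4.48 in enriched cells, against 3.72, 2.72 and 2.94 in control cells (log2 difference 1.70, SE 0.46, adjusted p = 0.0182). Its Cy3 signal was not well above background on any of the 6 arrays, the groups did not overlap, and it lost its call without any 1 of enriched replicate 2 and control replicate 2 (1.50 to 1.60, adjusted p of 0.0608 to 0.069).

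**Figure D3:**
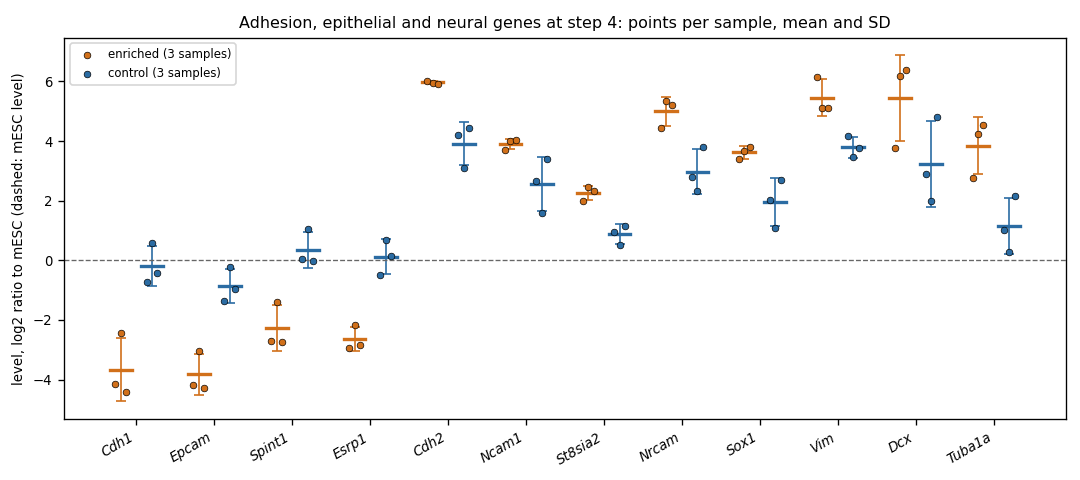
Levels of 12 adhesion, epithelial and neural genes as log2 ratios to mESC, with a point for each of the 3 enriched (left, orange) and 3 control (right, blue) samples of a gene, bars at the group means and error bars of 1 SD. Cdh1 lies between -4.42 and -2.44 in enriched cells, against -0.72 to 0.58 in control cells, and Cdh2 between 5.92 and 6.02 in enriched cells, against 3.09 to 4.43 in control cells.

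Neural stem cell and radial glia genes were higher in 10 of 31 cases and lower in 0, with a median difference of 1.11. The number higher was between 6 (without enriched replicate 2 or control replicate 2) and 16 (without enriched replicate 1) with 1 array left out. Sox1, the earliest neural Sox factor, was at 3.39, 3.65 and 3.80 in enriched cells, against 2.02, 1.10 and 2.71 in control cells (log2 difference 1.67, SE 0.38, adjusted p = 0.00881). Vim, the vimentin filament of progenitors and many other cells, was at 6.16, 5.09 and 5.09 in enriched cells, against 4.15, 3.46 and 3.76 in control cells (log2 difference 1.66, SE 0.33, adjusted p = 0.00514). Fgfbp3, a secreted carrier of FGF, was at 3.90, 5.67 and 6.38 in enriched cells, against 2.33, 1.83 and 3.54 in control cells (log2 difference 2.75, SE 0.60, adjusted p = 0.00732). These calls held under every omission, and the groups overlapped in none of the 3 genes, but with the spread of the arrays scaled the difference of Vim turned (-0.24, adjusted p = 0.717). Sox2, which mESC express as well, was at -1.49, -1.35 and -1.31 in enriched cells, against -1.18, -1.87 and -1.36 in control cells, below mESC in both groups, and was not called (log2 difference 0.09, SE 0.27, adjusted p = 0.839). Nes, the nestin filament, was at 3.40, 2.81 and 3.05 in enriched cells, against 2.43, 1.40 and 1.91 in control cells (log2 difference 1.17, SE 0.39, adjusted p = 0.0419) and lost its call without any 1 of enriched replicates 1, 2 and 3 and control replicates 2 and 3 (0.92 to 1.31, adjusted p of 0.0656 to 0.15). Pax6, a factor of dorsal forebrain progenitors, was at 0.82, 1.41 and 1.22 in enriched cells, against 0.49, 0.04 and 0.84 in control cells and was not called (adjusted p = 0.0603), but passed with the slide as a block (adjusted p = 0.0454).

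Proneural and neurogenic factors drive precursors toward neurons. Of 28 measured, 10 were higher and 1, Rest, was lower, and the number higher was between 1 (without enriched replicates 2 or 3 or control replicate 2) and 20 (without enriched replicate 1) with 1 array left out. Hes6, an antagonist of Notch targets, was at 2.85, 2.28 and 2.43 in enriched cells, against 1.50, 0.48 and 1.57 in control cells (log2 difference 1.34, SE 0.32, adjusted p = 0.0109), and its call held under every omission. Sox4, which acts in newborn neurons, was at 4.05, 5.09 and 5.09 in enriched cells, against 2.88, 2.16 and 3.71 in control cells (log2 difference 1.83, SE 0.48, adjusted p = 0.0165) and lost its call without any 1 of enriched replicates 2 and 3 and control replicate 2 (1.45 to 1.65, adjusted p of 0.0607 to 0.0655). In Sox4 enriched replicate 1 lay below enriched replicates 2 and 3, and control replicate 2 was lowest of all.

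Genes of the young neuron's cytoskeleton were higher in 19 of 35 cases and lower in 2, with a median difference of 1.62. Higher genes numbered between 6 (without enriched replicate 3 or control replicate 2) and 30 (without enriched replicate 1) with 1 array left out. Tuba1a, the main alpha-tubulin of young neurons, was at 2.77, 4.22 and 4.55 in enriched cells, against 1.01, 0.28 and 2.14 in control cells (log2 difference 2.70, SE 0.61, adjusted p = 0.00877). Mllt11, a microtubule-associated protein of neurons, was at 3.23, 4.47 and 4.92 in enriched cells, against 1.74, 0.89 and 3.12 in control cells (log2 difference 2.29, SE 0.55, adjusted p = 0.0116). Dpysl2, the collapsin response mediator CRMP2, was at 3.05, 4.20 and 4.47 in enriched cells, against 1.67, 1.06 and 2.63 in control cells (log2 difference 2.12, SE 0.47, adjusted p = 0.00843). In these genes every enriched value lay above every control value, and enriched replicate 1 was the lowest of its group.

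The usual markers of young neurons did not pass with all arrays. Dcx, doublecortin, was at 3.77, 6.17 and 6.38 in enriched cells, against 2.90, 2.00 and 4.82 in control cells (log2 difference 2.20, SE 0.82, adjusted p = 0.0652). Tubb3, the class III beta-tubulin, was at 0.67, 3.21 and 3.58 in enriched cells, against 0.99, -1.11 and 1.80 in control cells (log2 difference 1.92, SE 0.94, adjusted p = 0.146). Map2, a dendritic microtubule protein, was at 3.13, 4.82 and 5.04 in enriched cells, against 2.35, 1.03 and 3.61 in control cells (log2 difference 2.00, SE 0.71, adjusted p = 0.054). In each of them enriched replicate 1 lay below control replicate 3, so that the groups overlapped. With the slide as a block Dcx and Map2 were called (adjusted p = 0.0329 for Dcx and 0.0258 for Map2), and without enriched replicate 1 Dcx, Tubb3 and Map2 were all called (3.03 with adjusted p = 0.0152 for Dcx, 2.83 with adjusted p = 0.037 for Tubb3 and 2.60 with adjusted p = 0.0219 for Map2).

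Exceptions were found among filaments and tubulins. Nefh, the heavy neurofilament, was at -2.11, -1.13 and -1.93 in enriched cells, against 1.56, 0.05 and 0.48 in control cells (log2 difference -2.42, SE 0.55, adjusted p = 0.00884). Prph, the peripherin filament of peripheral neurons, was at -2.54, -2.08 and -2.17 in enriched cells, against -1.38, -1.05 and -0.96 in control cells (log2 difference -1.13, SE 0.24, adjusted p = 0.00663). Both were lower in every enriched than in any control sample. Among tubulins and motors, 17 of 34 were higher and 3 lower, all 3 of them alpha-tubulins, and the number higher was between 7 (without enriched replicate 3) and 21 (without enriched replicate 1) with 1 array left out. Tuba3a, a tubulin gene of the testis, was at -4.17, -3.85 and -4.08 in enriched cells, against -0.33, -1.06 and -1.08 in control cells (log2 difference -3.21, SE 0.61, adjusted p = 0.00391). Tuba3b, a near-identical copy whose probe may share signal with Tuba3a, fell by 2.24 (SE 0.53, adjusted p = 0.0105). Tuba1c had a difference of -1.24 (adjusted p = 0.0382) and lost its call without any 1 of enriched replicates 1 and 3 and control replicates 1, 2 and 3 (-1.35 to -0.92, adjusted p of 0.0557 to 0.141).

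RNA-binding proteins of neurons were higher in 7 of 22 cases, and Esrp1 was the 1 lower gene, with the number higher between 3 (without enriched replicate 3 or control replicate 2) and 14 (without enriched replicate 1) with 1 array left out. Celf2, a regulator of splicing and RNA stability, was at 3.77, 4.15 and 4.37 in enriched cells, against 2.38, 2.07 and 3.00 in control cells (log2 difference 1.61, SE 0.25, adjusted p = 0.00136). Celf5 was at 1.37, 2.04 and 2.39 in enriched cells, against -0.53, -0.17 and 1.16 in control cells (log2 difference 1.78, SE 0.39, adjusted p = 0.00752). Both calls held under every omission. Elavl3 (HuC), a common neuron marker, was at 0.29, 1.92 and 2.26 in enriched cells, against -0.37, -1.37 and 1.17 in control cells and was not called (log2 difference 1.68, SE 0.70, adjusted p = 0.0925), but passed with the slide as a block (adjusted p = 0.0427). Of 41 synaptic genes 11 were higher, 18 with the slide as a block, and 1 was lower. Higher genes numbered between 3 (without enriched replicates 2 or 3 or control replicate 2) and 24 (without enriched replicate 1) with 1 array left out. Syn2, synapsin 2, was at 3.17, 3.48 and 4.17 in enriched cells, against 1.01, 1.17 and 2.58 in control cells (log2 difference 2.02, SE 0.47, adjusted p = 0.0103). Syt1, the calcium sensor of transmitter release, was at 3.94, 4.76 and 5.51 in enriched cells, against 2.16, 0.51 and 4.05 in control cells (log2 difference 2.50, SE 0.79, adjusted p = 0.0356). It lost its call without any 1 of enriched replicates 2 and 3 and control replicates 1 and 2 (1.64 to 2.49, adjusted p of 0.0833 to 0.122), with the smallest difference (1.64) without control replicate 2.

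Genes of electrical and chemical signalling were higher in part, and most did not pass. Of 38 voltage-gated channel subunits 17 were higher and 1 lower, and the number higher was between 5 (without control replicate 2) and 21 (without enriched replicate 1) with 1 array left out. Kcnc1, a fast potassium channel, was at 2.55, 2.44 and 2.43 in enriched cells, against 0.79, 0.68 and 1.54 in control cells (log2 difference 1.47, SE 0.24, adjusted p = 0.00193). Of 35 receptor subunits 8 were higher, 15 with the slide as a block, and 0 lower, and the number higher was between 2 (without enriched replicate 3 or control replicates 1 or 2) and 17 (without enriched replicate 1) with 1 array left out. Gria3, an AMPA receptor subunit, was at 2.92, 2.35 and 2.01 in enriched cells, against 0.62, 0.30 and 1.07 in control cells (log2 difference 1.76, SE 0.28, adjusted p = 0.00176). In Kcnc1 and Gria3 enriched replicate 1 was the highest of its group. Of GABAergic genes 6 of 25 were higher, a number between 0 (without enriched replicate 3) and 15 (without enriched replicate 1) with 1 array left out. Of glutamatergic genes 3 of 14 were higher, 5 with the slide as a block, a number between 1 (without enriched replicate 2 or control replicates 1 or 2) and 9 (without enriched replicate 1) with 1 array left out. Dlx1, a factor of GABAergic neurons, was at 2.01, 3.85 and 4.09 in enriched cells, against 0.99, 0.10 and 2.16 in control cells (log2 difference 2.24, SE 0.60, adjusted p = 0.018) and lost its call without any 1 of enriched replicates 2 and 3 and control replicate 2 (1.75 to 1.97, adjusted p of 0.0675 to 0.0711). Slc32a1, the vesicular GABA transporter, was at 2.65, 4.81 and 5.67 in enriched cells, against 1.76, 0.28 and 4.46 in control cells and was not called (log2 difference 2.21, SE 1.03, adjusted p = 0.13). Rorb, a factor of cortex and thalamus, was at 1.92, 2.67 and 2.55 in enriched cells, against 0.56, 0.18 and 1.27 in control cells (log2 difference 1.71, SE 0.35, adjusted p = 0.00566).

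Axon guidance genes steer growing neurites, and 25 of 52 were higher and 1, Sema4d, was lower. Higher genes numbered between 15 (without enriched replicate 2 or control replicate 2) and 28 (without enriched replicate 1) with 1 array left out. Plxna2, a semaphorin receptor, was at 3.60, 4.15 and 4.64 in enriched cells, against 2.10, 0.79 and 2.88 in control cells (log2 difference 2.21, SE 0.51, adjusted p = 0.00924). Robo2, a receptor of Slit proteins, was at 3.78, 3.50 and 3.63 in enriched cells, against 1.27, 1.58 and 2.15 in control cells (log2 difference 1.97, SE 0.40, adjusted p = 0.00522). Ephb1, an ephrin receptor, was at 3.31, 4.12 and 4.08 in enriched cells, against 2.22, 0.48 and 2.66 in control cells (log2 difference 2.05, SE 0.50, adjusted p = 0.0117). Every enriched value of these genes lay above every control value. Migration genes were higher in 9 of 29 cases and lower in 2, and the number higher was between 4 (without enriched replicate 3 or control replicate 2) and 16 (without enriched replicate 1) with 1 array left out. Rnd3, a GTPase that loosens actin in migrating neurons, was at 4.26, 4.46 and 4.60 in enriched cells, against 3.05, 2.62 and 3.22 in control cells (log2 difference 1.48, SE 0.17, adjusted p = 0.000327), the smallest adjusted p of its list, but with the spread of the arrays scaled the difference was near 0 (-0.04, adjusted p = 0.917). Cxcr4, the receptor of the chemokine CXCL12, was at 2.88, 3.36 and 2.91 in enriched cells, against 1.96, 0.81 and 1.86 in control cells (log2 difference 1.50, SE 0.32, adjusted p = 0.00621). The 2 lower genes were Pafah1b1 (Lis1), which drives nuclear movement and was at -0.68, -0.44 and -0.54 in enriched cells, against 0.06, 0.11 and -0.05 in control cells (log2 difference -0.59, SE 0.10, adjusted p = 0.00267), and Dab1, the adaptor of reelin receptors, with a difference of -0.74 (SE 0.14, adjusted p = 0.00361). Over all probes of Pafah1b1 the difference was instead positive (0.43, adjusted p = 0.0285). Probes of Dab1 disagreed, with called probe differences of -0.84 and 0.97.

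Adhesion molecules of the immunoglobulin family, to which Ncam1 belongs, and of related families were higher in 13 of 35 cases, or 21 with the slide as a block, and lower in 0. Higher genes numbered between 6 and 19 (without enriched replicate 1) with 1 array left out. Nrcam was at 4.44, 5.34 and 5.20 in enriched cells, against 2.78, 2.33 and 3.79 in control cells (log2 difference 2.02, SE 0.34, adjusted p = 0.00201). Cntnap2, a neurexin-like adhesion protein of axons, was at 2.62, 2.82 and 2.84 in enriched cells, against 1.04, -0.07 and 1.57 in control cells (log2 difference 1.91, SE 0.35, adjusted p = 0.0031). Lrrn1 was at 2.68, 3.66 and 3.10 in enriched cells, against 0.99, 0.56 and 1.80 in control cells (log2 difference 2.03, SE 0.36, adjusted p = 0.00274). The calls of these 3 held under every omission, unlike that of Ncam1. Lrrn3 was at 5.57, 6.67 and 6.85 in enriched cells, against 3.88, 2.02 and 4.92 in control cells (log2 difference 2.75, SE 0.86, adjusted p = 0.0342), among the 3 largest rises of the ranked genes. It lost its call without any 1 of enriched replicates 2 and 3 and control replicates 1 and 2 (1.96 to 2.89, adjusted p of 0.0654 to 0.126).

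In the Notch pathway cells that send signals make neurons and cells that receive them stay progenitors. Of 28 measured genes 11 were higher and 1 lower, and the number higher was between 5 and 10 (without enriched replicate 1) with 1 array left out. Dll1, a ligand, was at 1.64, 2.81 and 2.67 in enriched cells, against 1.01, 0.79 and 1.68 in control cells (log2 difference 1.22, SE 0.38, adjusted p = 0.0346) and lost its call without any 1 of enriched replicates 2 and 3 and control replicates 1 and 2 (1.00 to 1.14, adjusted p of 0.0919 to 0.121). Notch2, a receptor, was at 2.28, 2.15 and 1.65 in enriched cells, against 0.96, 0.62 and 0.90 in control cells (log2 difference 1.20, SE 0.27, adjusted p = 0.00931). Rbpj, the DNA-binding factor of the pathway, was the lower member at -1.78, -1.51 and -1.61 in enriched cells, against -1.12, 0.07 and -0.31 in control cells (log2 difference -1.18, SE 0.32, adjusted p = 0.0203) and lost its call without any 1 of enriched replicates 1 and 3 and control replicates 2 and 3 (-1.19 to -0.92, adjusted p of 0.0504 to 0.0795). Hes5, a main target in neural progenitors, was at 3.79, 5.68 and 5.71 in enriched cells, against 3.80, 1.98 and 4.54 in control cells and was not called (log2 difference 1.62, SE 0.92, adjusted p = 0.209). On slide 1 its enriched and control values were nearly equal.

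In the Wnt pathway 6 genes were higher and 4 lower of 48. Tcf7, a nuclear factor of the pathway, was at -2.90, -2.60 and -2.73 in enriched cells, against -0.87, -0.69 and -1.08 in control cells (log2 difference -1.86, SE 0.13, adjusted p = 5.18e-05), the smallest adjusted p of all list members. Nkd1, an intracellular inhibitor, was at 1.92, 1.90 and 1.94 in enriched cells, against 0.83, 0.34 and 0.60 in control cells (log2 difference 1.33, SE 0.24, adjusted p = 0.00338). Dkk2, a secreted modulator, was at 3.05, 2.29 and 1.80 in enriched cells, against 1.09, 0.48 and 0.77 in control cells (log2 difference 1.60, SE 0.30, adjusted p = 0.00356). Of FGF ligands, receptors and feedback genes 8 of 39 were higher, 13 with the slide as a block, and 3 lower, with the number higher between 4 (without control replicate 2) and 9 (without control replicate 3) with 1 array left out. Fgf15, a ligand of the neural tube, was at 3.32, 2.89 and 4.01 in enriched cells, against 1.58, -0.30 and 1.75 in control cells (log2 difference 2.40, SE 0.47, adjusted p = 0.00458). Fgf9 was at 2.14, 2.95 and 2.70 in enriched cells, against 1.43, 0.95 and 1.57 in control cells (log2 difference 1.28, SE 0.22, adjusted p = 0.00254). Both were higher in every enriched sample, opposite to Fgf4. Fgfbp1, an FGF carrier of epithelia, was at -1.68, -1.97 and -1.63 in enriched cells, against 0.21, -0.10 and -0.69 in control cells (log2 difference -1.57, SE 0.26, adjusted p = 0.0019), opposite to its paralog Fgfbp3, with Cy5 well above background on 2 of 3 enriched arrays.

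Hedgehog genes were higher in 7 of 22 cases and lower in 0, and the number higher was between 2 (without control replicate 2) and 7 with 1 array left out. Smo, the transducer of the signal, was at 2.42, 2.17 and 1.92 in enriched cells, against 1.06, 0.82 and 1.29 in control cells (log2 difference 1.11, SE 0.22, adjusted p = 0.00471), or 0.50, adjusted p = 0.107 over all its probes. BMP and TGF-beta genes were higher in 10 and lower in 2 of 46. Smad7, the inhibitory Smad, was one of the lower genes at -2.31, -2.43 and -3.05 in enriched cells, against -1.54, -1.27 and -1.99 in control cells (log2 difference -1.0, SE 0.23, adjusted p = 0.00881). Of retinoid genes 5 of 23 were higher and 3 lower, with the number higher between 1 (without enriched replicate 2 or control replicate 2) and 4 (without enriched replicates 1 or 3 or control replicate 1) with 1 array left out. Rarg, a retinoic acid receptor, was at -1.25, -1.73 and -2.11 in enriched cells, against 0.36, -0.04 and -0.28 in control cells (log2 difference -1.71, SE 0.23, adjusted p = 0.000794), with no overlap of the groups.

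Patterning factors of the forebrain and hypothalamus were higher in 11 of 23 cases and lower in 2, and the number higher was between 4 (without control replicate 2) and 13 (without enriched replicate 1) with 1 array left out. Six6, a factor of eye and hypothalamus, was at 3.74, 3.51 and 3.96 in enriched cells, against 2.34, 0.56 and 2.42 in control cells (log2 difference 1.96, SE 0.42, adjusted p = 0.00666). Nkx2-1, of the ventral forebrain, was at 2.53, 3.56 and 2.97 in enriched cells, against 1.29, 0.48 and 1.82 in control cells (log2 difference 1.82, SE 0.35, adjusted p = 0.00443). The calls of Six6 and Nkx2-1 held under every omission. Of midbrain and hindbrain factors 8 of 24 were higher and 2 lower, with the number higher between 5 (without control replicate 2) and 10 (without enriched replicate 1) with 1 array left out. Irx2 was among the higher ones, at 1.35, 1.98 and 1.39 in enriched cells, against 0.28, 0.00 and 0.55 in control cells (log2 difference 1.30, SE 0.24, adjusted p = 0.00324). Of 18 Hox genes, which mark hindbrain and spinal cord, 2 were higher and 1 lower.

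By their list medians, lipid synthesis genes were at or above the mESC level in enriched cells and near or below it in control cells. Of 25 cholesterol synthesis genes 13 were higher and 0 lower, with a median difference of 0.82, and the number higher was between 4 (without control replicate 2) and 19 (without enriched replicate 1) with 1 array left out. List medians were -0.02, 0.37 and 0.96 in enriched cells, against -0.55, -0.74 and -0.23 in control cells. Control cells lay below mESC on all 3 arrays, and enriched replicates 2 and 3 lay above it. Of 31 genes of fatty acid synthesis and of the LXR receptors 17 were higher and 3 lower, with a median difference of 0.85, and the number higher was between 10 (without enriched replicate 3) and 17 with 1 array left out. The SREBP factors switch on most genes of both lists, and LXR receptors switch on Srebf1, Abca1 and Scd genes.

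Scd2, the stearoyl-CoA desaturase of brain, was at 3.08, 3.67 and 3.98 in enriched cells, against 0.76, -0.10 and 1.22 in control cells (log2 difference 2.95, SE 0.31, adjusted p = 0.000226), the second largest rise of the ranked genes. Scd1, its paralog of liver and skin, was at 1.43, 2.04 and 3.02 in enriched cells, against -0.21, -0.56 and 0.57 in control cells (log2 difference 2.23, SE 0.41, adjusted p = 0.00319). Fasn, fatty acid synthase, was at 0.93, 1.68 and 2.32 in enriched cells, against -0.17, -0.95 and -0.22 in control cells (log2 difference 2.09, SE 0.37, adjusted p = 0.00274). In all 3 every enriched sample lay above mESC and above every control sample. Abca1, which exports cholesterol, was at 5.22, 4.15 and 3.95 in enriched cells, against 1.96, 1.89 and 1.66 in control cells (log2 difference 2.60, SE 0.30, adjusted p = 0.000357), with enriched replicate 1 the highest. Srebf1, the gene of SREBP1, named after its values were seen, was at 2.14, 1.95 and 2.09 in enriched cells, against 0.51, 0.28 and 0.69 in control cells (log2 difference 1.57, SE 0.18, adjusted p = 0.00031). Acss2, which makes acetyl-CoA from acetate, was at 0.70, 1.41 and 3.10 in enriched cells, against -0.65, -0.76 and 0.08 in control cells (log2 difference 2.18, SE 0.49, adjusted p = 0.00836). The spread of Acss2 within the enriched group was wide, while that of Srebf1 was narrow.

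On the sterol branch, Hmgcs1, which makes HMG-CoA, was at 0.94, 1.85 and 2.81 in enriched cells, against -0.25, -0.89 and 0.75 in control cells (log2 difference 2.00, SE 0.49, adjusted p = 0.0126) and lost its call without control replicate 2 (1.62, adjusted p = 0.051). Tm7sf2, a sterol reductase, was at 0.55, 1.75 and 2.26 in enriched cells, against -0.61, -0.54 and 0.18 in control cells (log2 difference 1.84, SE 0.36, adjusted p = 0.00453). Mvk, mevalonate kinase, named for its promoter, was at 0.16, 0.44 and 1.08 in enriched cells, against -0.49, -1.09 and -0.23 in control cells (log2 difference 1.17, SE 0.28, adjusted p = 0.0113). In each of them enriched replicate 3 was highest and enriched replicate 1 the lowest of its group. The 3 lower genes were Acacb, Elovl7 and Apoe. Acacb, the acetyl-CoA carboxylase that restrains fat oxidation, was at -3.28, -3.04 and -3.27 in enriched cells, against -0.84, -1.32 and -1.20 in control cells (log2 difference -2.08, SE 0.18, adjusted p = 8.87e-05). Elovl7, an elongase, was at -1.31, -1.83 and -2.37 in enriched cells, against 0.08, 1.04 and 0.26 in control cells (log2 difference -2.30, SE 0.44, adjusted p = 0.00417). Apoe, the lipid carrier and an LXR target in other cells, was at -2.24, -2.97 and -3.21 in enriched cells, against -1.26, -0.81 and -1.52 in control cells (log2 difference -1.61, SE 0.39, adjusted p = 0.0113). Apoe and Acacb lay below mESC in all samples, opposite in direction to Abca1 and Srebf1.

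**Figure D4:**
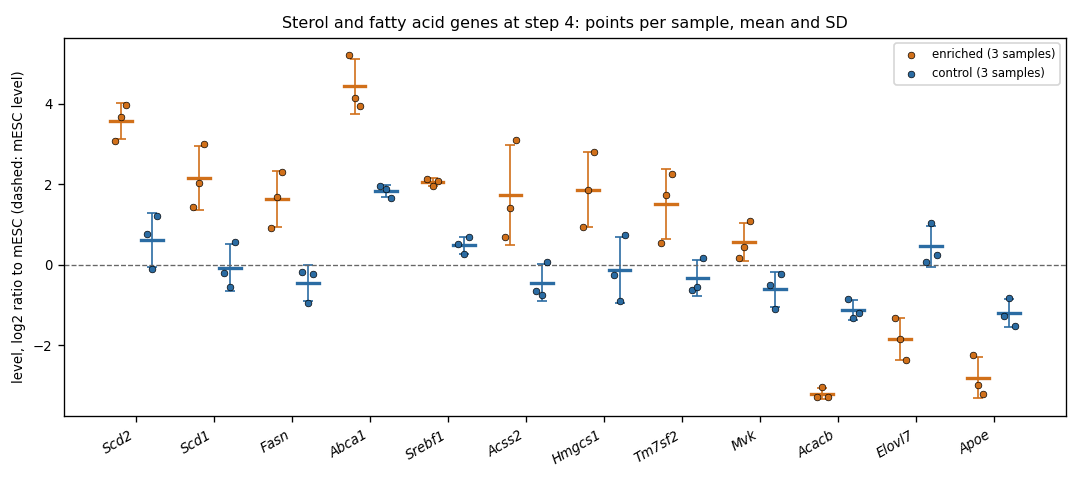
Levels of 12 genes of sterol and fatty acid metabolism as log2 ratios to mESC, with a point for each of the 3 enriched (left, orange) and 3 control (right, blue) samples of a gene, bars at the group means and error bars of 1 SD. Scd1, Fasn, Acss2, Hmgcs1, Tm7sf2 and Mvk have group means above 0 in enriched cells and below 0 in control cells, and Acacb, Elovl7 and Apoe are lower in enriched cells.

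By the signs of the group means, which were not tested against 0, most genes with a large difference did not cross the mESC level. Of the 880 genes called at least 2-fold higher with Cy3 well above background on all 6 arrays, 738 (83.9%) were above mESC in both groups and 138 (15.7%) were above it in enriched cells and below it in control cells. Of the 1373 called at least 2-fold lower, 1007 (73.3%) were below mESC in both groups and 360 (26.2%) were below it in enriched cells and above it in control cells. The control mean lay within 1 log2 unit of mESC for 545 of the 880 higher genes (61.9%) and 1091 of the 1373 lower genes (79.5%). The 10 ranked genes with the largest rise across the mESC level were Scd1, Acss2, Fasn, Hmgcs1, Prr36, Arhgef10l, Slc2a6, Tm7sf2, Nol4l and Aif1l, of which 5 act in lipid synthesis. The calls of Prr36, Arhgef10l and Nol4l were lost without any 1 of enriched replicates 2 and 3 and control replicates 1 and 2. The 10 with the largest fall across it were Smc1b, Nlrp4f, Mael, Zbtb32, Ddx4, Gm7167, Hormad1, Syce1, Triml2 and Esx1. Zbtb32, a zinc finger repressor of lymphocytes and germ cells, was at -4.53, -3.91 and -4.52 in enriched cells, against 0.40, 1.03 and -0.03 in control cells (log2 difference -4.79, SE 0.43, adjusted p = 0.000113).

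Among the 15 largest called rises with the same direction on every slide were also several that no other paragraph describes. Cnr1, the cannabinoid receptor of neurons, was at 3.35, 4.18 and 4.47 in enriched cells, against 1.37, 0.84 and 2.48 in control cells (log2 difference 2.44, SE 0.53, adjusted p = 0.00737). Abat, which breaks down GABA, was at 5.05, 5.48 and 5.21 in enriched cells, against 2.92, 1.51 and 3.58 in control cells (log2 difference 2.57, SE 0.42, adjusted p = 0.00195). Il18, an interleukin, was at 2.81, 3.90 and 4.14 in enriched cells, against 0.68, 0.61 and 1.82 in control cells (log2 difference 2.58, SE 0.50, adjusted p = 0.00415). Pik3r3, a regulatory subunit of PI3-kinase, was at 5.22, 5.16 and 5.07 in enriched cells, against 2.98, 1.10 and 3.34 in control cells (log2 difference 2.67, SE 0.66, adjusted p = 0.0125). Control replicate 2 was the lowest sample in Cnr1, Abat and Pik3r3. Among the 15 largest falls, Arl14epl was at -6.58, -5.38 and -6.65 in enriched cells, against -0.32, -0.96 and -1.39 in control cells (log2 difference -5.31, SE 0.50, adjusted p = 0.000142), and Cyct, the cytochrome c of the testis, at -5.15, -3.66 and -4.88 in enriched cells, against 0.00, -0.30 and -0.28 in control cells (log2 difference -4.37, SE 0.54, adjusted p = 0.00051).

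Energy and amino acid metabolism gave smaller counts. Of 29 glycolytic genes 2 were higher and 6 lower. Aldoc, the aldolase of brain and astrocytes, had the largest rise of the ranked genes, at 2.68, 3.65 and 4.04 in enriched cells, against 0.73, -1.11 and 1.55 in control cells (log2 difference 3.07, SE 0.86, adjusted p = 0.0219). It lost its call without any 1 of enriched replicates 2 and 3 and control replicate 2 (2.32 to 2.97, adjusted p of 0.0654 to 0.0838). Pdk1, which holds pyruvate back from mitochondria, was at -2.99, -2.91 and -2.41 in enriched cells, against -0.95, -0.66 and -1.09 in control cells (log2 difference -1.87, SE 0.36, adjusted p = 0.00447). Of 31 genes of amino acid synthesis and transport 7 were lower and 0 higher, among them Shmt1, an enzyme of serine and folate, at -2.32, -2.59 and -2.79 in enriched cells, against -0.44, -1.16 and -1.11 in control cells (log2 difference -1.67, SE 0.25, adjusted p = 0.00115).

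Antioxidant enzymes were lower in 12 of 34 cases and higher in 4, and the number lower was between 11 (without enriched replicates 2 or 3 or control replicate 2) and 16 (without enriched replicate 1) with 1 array left out. Nqo1, a quinone reductase and target of NRF2, was at -0.90, -0.83 and -1.22 in enriched cells, against 1.60, 1.83 and 1.24 in control cells (log2 difference -2.54, SE 0.35, adjusted p = 0.000865), above mESC in all control samples and below it in all enriched samples. Gpx2, a glutathione peroxidase, was at -3.26, -3.73 and -3.47 in enriched cells, against -1.26, -1.29 and -1.65 in control cells (log2 difference -2.08, SE 0.31, adjusted p = 0.00113). Prdx2, a peroxiredoxin, was at 1.21, 1.58 and 1.73 in enriched cells, against 0.07, -0.15 and 0.56 in control cells (log2 difference 1.35, SE 0.24, adjusted p = 0.00295), while its paralog Prdx1, named after its values were seen, fell by 1.15 (SE 0.19, adjusted p = 0.00212). Hsp90aa1, a heat shock protein, was at -2.22, -1.65 and -2.0 in enriched cells, against -0.19, -0.02 and -0.24 in control cells (log2 difference -1.81, SE 0.20, adjusted p = 0.000279), while its list of heat shock and unfolded protein genes had 1 of 26 higher and 3 lower.

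Matrix and glial genes gave smaller counts too. Of brain extracellular matrix genes 8 of 25 were higher and 2 lower, with the number higher between 4 (without enriched replicate 2 or control replicate 2) and 9 (without enriched replicate 1) with 1 array left out. Vcan, the proteoglycan versican, was at 2.13, 2.57 and 2.51 in enriched cells, against 0.59, -0.28 and 1.27 in control cells (log2 difference 1.87, SE 0.41, adjusted p = 0.00778). Has2, a hyaluronan synthase, was at 1.85, 2.90 and 3.06 in enriched cells, against 1.17, 1.39 and 0.69 in control cells (log2 difference 1.52, SE 0.33, adjusted p = 0.00763). Astrocyte genes had Aldoc higher and Apoe lower of 22, and 5 higher with the slide as a block. Gfap, the astrocyte filament, was at -0.29, 1.37 and 0.93 in enriched cells, against 0.11, -0.41 and 0.14 in control cells and was not called (log2 difference 0.72, SE 1.05, adjusted p = 0.641). Of oligodendrocyte genes 1 of 25 was higher. Of mesenchyme and fibroblast genes 3 of 32 were higher and 2 lower, and Col1a1, a collagen of fibroblasts, was at 7.04, 5.32 and 4.66 in enriched cells, against 4.92, 4.43 and 4.64 in control cells and was not called (log2 difference 1.01, SE 0.61, adjusted p = 0.233). It lay far above mESC in both groups, highest in enriched replicate 1.

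Endothelial and blood genes were lower in 5 of 19 cases and higher in 0. Pecam1, an adhesion molecule of endothelium, was at -1.55, -1.80 and -1.69 in enriched cells, against -0.34, -0.33 and -0.36 in control cells (log2 difference -1.33, SE 0.11, adjusted p = 6.52e-05). It lay below mESC in both groups, that is, below the level of the stem cells themselves. Foxd3, a factor of stem cells and neural crest, was the 1 called of 18 neural crest genes, at -1.76, -1.50 and -2.16 in enriched cells, against 0.79, 0.25 and 0.34 in control cells (log2 difference -2.27, SE 0.27, adjusted p = 0.000409), with Cy5 well above background on 1 of 3 enriched arrays. Of connexins and annexins 2 of 22 were higher and 5 lower, with the number lower between 3 and 4 (without control replicate 1) with 1 array left out. Anxa8, an annexin of epithelia, was at -2.58, -2.72 and -3.44 in enriched cells, against 0.34, 0.82 and -0.50 in control cells (log2 difference -3.13, SE 0.40, adjusted p = 0.000585).

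Imprinted genes, which are read from 1 parental copy, were higher in 5 of 27 cases, 8 with the slide as a block, and lower in 3, with the number higher between 2 and 7 (without enriched replicate 1 or control replicate 3) with 1 array left out. Gnas, which encodes a G protein subunit, was at 3.06, 3.25 and 3.10 in enriched cells, against 1.79, 1.85 and 2.04 in control cells (log2 difference 1.24, SE 0.15, adjusted p = 0.000482), or 0.57, adjusted p = 0.158 over all its probes. The 3 that fell are best known from the placenta. Slc38a4, an amino acid transporter, was at -2.67, -2.92 and -3.78 in enriched cells, against -0.22, 0.45 and -0.34 in control cells (log2 difference -3.08, SE 0.46, adjusted p = 0.00117). Ascl2, a bHLH factor of trophoblast, was at -2.04, -2.09 and -2.69 in enriched cells, against -0.18, -0.15 and -0.45 in control cells (log2 difference -2.02, SE 0.24, adjusted p = 0.000371). Phlda2, which limits placental growth, fell by 1.93 (SE 0.25, adjusted p = 0.000596). Every enriched value of these lay below every control value.

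Neuropeptide and secretory granule genes were higher in 6 of 26 cases, 10 with the slide as a block, and lower in 1, with the number higher between 1 (without control replicate 2) and 13 (without enriched replicate 1) with 1 array left out. Penk, the precursor of enkephalins, was at 2.72, 3.17 and 2.33 in enriched cells, against 1.21, 0.84 and 0.96 in control cells (log2 difference 1.74, SE 0.35, adjusted p = 0.00525). Neurotrophin and GDNF family genes were higher in 5 of 27 cases and lower in 2, with the number higher between 2 (without enriched replicate 2 or control replicates 1 or 2) and 6 (without enriched replicate 1) with 1 array left out. Sort1, a sorting receptor of proneurotrophins, was at 2.40, 2.84 and 2.49 in enriched cells, against 0.98, 0.84 and 1.35 in control cells (log2 difference 1.52, SE 0.17, adjusted p = 0.000259), but another of its probes was called lower, at -0.90. In all, 57 of the 4795 genes with more than 1 tested probe had probes called in both directions.

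Genes that respond to stress and handling differed between slides. Of 27 p53 targets and cell death genes 3 were higher and 1 lower, with medians on slides 1, 2 and 3 of 1.22, 0.04 and -0.08. The median lay well above 0 on slide 1 and near 0 on slides 2 and 3. Of 27 immediate early genes 2 were higher and 1 lower, or 4 lower with the slide as a block. Jun, a subunit of AP-1, was at 3.44, 2.30 and 2.73 in enriched cells, against 1.63, 1.31 and 1.90 in control cells (log2 difference 1.21, SE 0.31, adjusted p = 0.0152) and lost its call without control replicate 2 (1.05, adjusted p = 0.0601). Nr4a1, an orphan nuclear receptor, was at -0.88, -1.64 and -1.75 in enriched cells, against -0.68, 0.65 and -0.25 in control cells (log2 difference -1.33, SE 0.40, adjusted p = 0.0285) and lost its call without any 1 of enriched replicates 2 and 3 and control replicate 2 (-1.22 to -0.96, adjusted p of 0.0901 to 0.106).

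**Figure D5:**
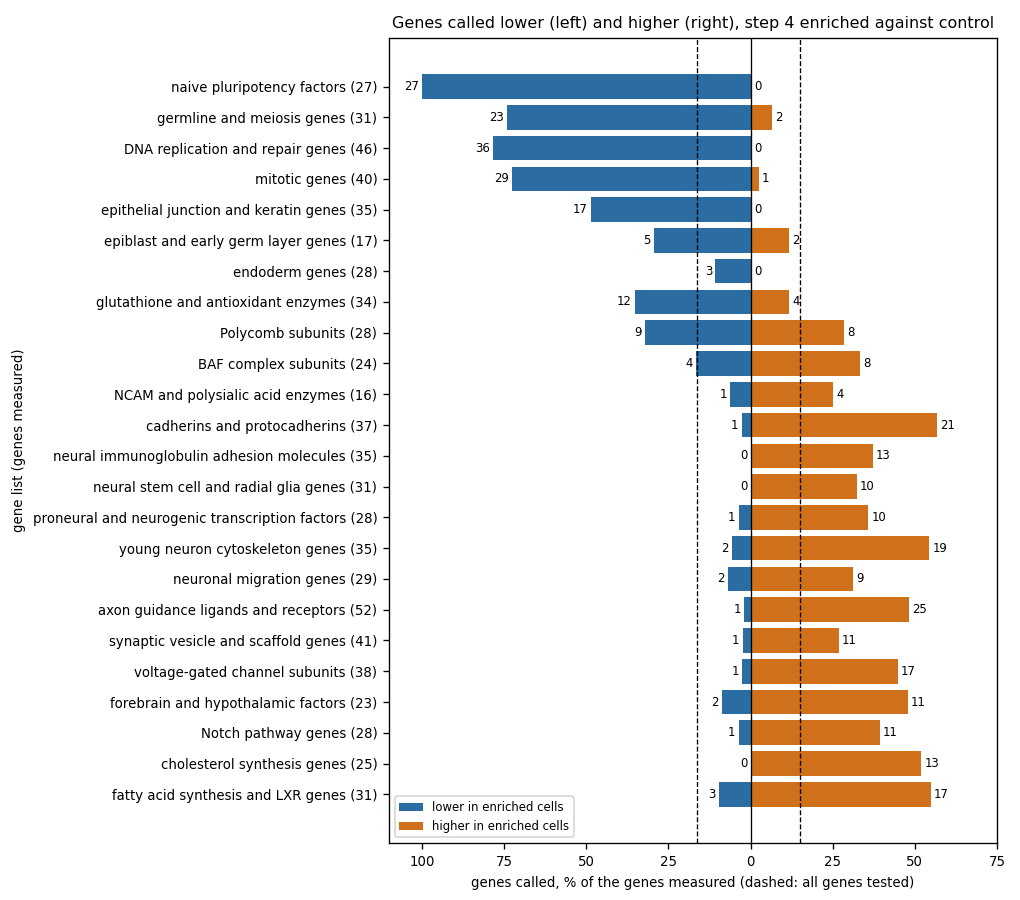
Share of the measured genes of 24 lists called lower (blue, to the left) and higher (orange, to the right) in enriched cells than in control cells at an adjusted p under 0.05. Dashed lines mark the shares over all 22325 genes, 16.2% lower and 15% higher, and the numbers called stand at the ends of the bars (27 of 27 lower for naive pluripotency factors, 21 of 37 higher for cadherins and protocadherins).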

How the data were processed

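The 12 Agilent 2-colour arrays (3 per group in 4 groups) were read as deposited. Spot intensity values are the scanner's mean signals and median local backgrounds, per the file headers, and the deposited log10 ratios are its background-subtracted, dye-normalized Cy5 over Cy3. Slide 2 was extracted with Feature Extraction 10.5.1.1, slides 1 and 3 with 10.7.3.1, and slide 2 was scanned on another day, per the file headers. The authors' deposited table of values holds log2 ratios equal to those log10 ratios after conversion (over 99% of probes), with array medians at 0. Direction comes from the dyes in the labels.

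Intensities were corrected by normexp (offset 50) and loess in limma 3.58.1 (R 4.3.3), without normalization between arrays. Control and outlier spots were left out of the averages, spots of a probe were averaged, and each gene was read by its brightest probe. Probes were named through RefSeq by accession (26581 and another 100), symbol (2535) or synonym (474), and 9739 stayed unnamed. Genes entered the test if 1 or more of the 4 groups had Cy5 signal well above background on each of its 3 arrays. limma's fit of 4 group means over 12 arrays gave p-values, adjusted by Benjamini-Hochberg. The spread thus comes in part from the step 5 arrays, whose cells had 0 ng/ml of bFGF and 200 uM ascorbic acid. The number of arrays limits the precision, and the p-values set each difference against the spread within the 4 groups, as moderated by limma. The 59 lists and the members were chosen with earlier results of these data known. The genes named are fixed anchors, the 15 largest rises and falls, the top called and uncalled list members, members of short lists and the 10 largest crossings of the mESC level in each direction. The others are said to be chosen after their values were seen. The fit was checked on simulated data.

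Each slide held 1 array of each group. Deviations from the group means of same-numbered enriched and control arrays correlated at 0.203, 0.13 and 0.644 on slides 1, 2 and 3. Those of differently numbered arrays correlated at -0.582 to 0.298. Enriched replicate 1 correlated more with control replicate 2 (0.298) than with control replicate 1. Only replicate 3 stood out, so these values do not settle whether the samples were paired. The pairing used as an alternative was read from the slide. The fit without it is the one reported, and block values are given where they differ. Alternatives changed the background correction, the normalization, the source of ratios, the filter, the probe rule, the arrays and the fit. The scripts ran under Python 3.11.15. Some genes are not reported here.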

Additional observations from a re-analysis of the deposited data

How the results depend on the processing

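There were 6951 calls, and 8770 with the slide as a replicate block, under which every call of a gene named here held. Genes it added are given beside their values above, and it changed no other call of a named gene. Leaving out both steps of slide 2 left 3020 calls, scaling the arrays to the same spread left 2310, and leaving out 1 of the 6 arrays left between 4343 (without control replicate 2) and 6871. Under the other alternatives there were between 5947 and 9472. Among these, a fit on only the 6 step 4 arrays gave 6056 calls, and 8 calls of genes named in the text were lost. The split between higher and lower genes turned on the scaling, as given above. The 9 list medians printed in the report kept their sign under every alternative. In size, 6 of the 9 moved in some alternative by at least the SD of their slide medians. Of 151 called genes named in the text, 68 kept their call under every alternative. Scaling removed 72 of the calls, leaving out slide 2 removed 47, and the scanner's own ratios removed 14, among them Cdh11, Fgf9, Lrrn3, Nkx2-1 and Syt1 besides the polysialic acid genes. The cause was not tested. The 8 of 23 uncalled genes that passed somewhere include Dcx and Map2. Directions turned for 3 called genes. With scaling Vim was at -0.24 and Rnd3 at -0.04, and over all probes Pafah1b1 was at 0.43. The other directions that turned belong to genes that were not called. With scaling these were Col1a1 (-1.16), Hes5 (-0.15), Gne (-0.05) and Lefty2 (1.43). With array weights they were Gne (-0.09), Neu1 (0.01) and Sox17 (0.22). Without slide 2 they were Cmas (-0.04), Mki67 (-0.02), Sox2 (-0.13), Neu1 (0.32) and Neu4 (0.06). With median centring they were Mki67 (-0.08) and Neu4 (0.04), and with either form of the scanner's ratios Mki67 (-0.03). With 1 array left out the differences of uncalled genes whose direction turned lay between -0.08 and 0.20 for Cmas, -0.16 and 0.23 for Gne, -0.06 and 0.21 for Mki67, -0.59 and 0.39 for Neu1, -0.10 and 0.03 for Neu4, and -0.11 and 0.23 for Sox2. The arrays limit low levels, since 173 called genes were not well above background in Cy5 on any enriched array and 58 on any control array.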
